A study of Mus musculus with 21 samples.

Results

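The genes *Hook1*, *Rimbp3*, *Spem1*, *Meig1*, *Spag16*, *Sun3*, *Spag4*, *Sun5* and *Cntrob* encode proteins of the manchette, the nuclear envelope and the attachment of head to tail in elongating spermatids. These 9 genes were chosen by name and read from the 24456 genes counted in each of 21 libraries, in which all 9 were found. They and the gene lists used below were chosen with earlier results of these data known, so that their shares beside all genes are a description. The study sequenced total RNA of purified mouse spermatogenic cells to compare transcriptomes with and without the histone variant H2A.L.2. In each genotype, wild-type and *H2al2* KO, pachytene spermatocytes had 3 libraries, as did round spermatids and condensing spermatids. Spermatozoa had 2 wild-type libraries and 1 *H2al2* KO library. The labels give testis as the source of every library. The age and strain of the mice, and the way in which the *H2al2* KO allele was made, were not given in the sources used here.

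The manchette is a transient skirt of microtubules that hangs from a ring around the spermatid nucleus while the head elongates, and it also carries cargo toward the growing tail. Proteins with a SUN domain sit in the nuclear envelope and join partners with a KASH domain, so that the nucleus is held to the cytoskeleton outside it. Loss of several of these proteins in mice gives misshapen, bent or detached sperm heads.

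Depth was given by the counts on genes. Wild-type pachytene spermatocyte libraries held 6206239 to 8201682 counts and their KO counterparts 5799060 to 6695384. Round spermatid libraries held 7326572 to 7852780 counts in wild-type and 7230653 to 7387043 in KO, and condensing spermatid libraries 5876464 to 6676636 and 6872271 to 7400817. The spermatozoa libraries were shallower, with 2772995 and 3450580 counts in wild-type and 3297783 in KO. Levels are given below as normalized CPM, the count of a gene scaled to the library total after correction for RNA composition. Normalized CPM is a share of the RNA of a library, so that in these bulk samples fewer cells of a type and less RNA per cell cannot be told apart. The paper calls the wild-type round spermatid samples independent biological replicates. The labels do not state that the libraries came from separate animals. P-values measure the spread between the samples, which in the other groups may be technical. Wild-type round spermatid replicates 2 and 3 were closer to each other than any other pair of replicates, with a mean chi-square of 1.06 per gene over 5617 genes with moderate counts against 1.72 to 12.2 in 18 other pairs. They still differed by more than sampling noise (chi-square p = 0.00148), with a mean chi-square of 8.60 over 197 abundant genes, and were kept as separate samples.

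The summed markers of pachytene spermatocytes and of round spermatids were highest in the libraries that carried the label. A list of 8 pachytene genes, all detected and led in pachytene spermatocytes by *Piwil1*, summed to 2280 to 3023 normalized CPM in wild-type pachytene spermatocytes to 916 to 1021 in wild-type round spermatids and to 1133 to 1364 in wild-type condensing spermatids. Single genes departed from the sum, with *Ccna1* at a mean of 109 normalized CPM in wild-type pachytene spermatocytes and 184 in round spermatids, and *Sycp1* at 127 in pachytene spermatocytes and 166 in condensing spermatids. The 8 round spermatid genes, led in round spermatids by *H1fnt*, summed to 626 to 956 normalized CPM in wild-type pachytene spermatocytes, 2788 to 3017 in wild-type round spermatids and 2005 to 2403 in wild-type condensing spermatids. For the 8 condensing spermatid genes, led by *Prm2*, the wild-type sums were 2220 to 5495 normalized CPM in pachytene spermatocytes, 26720 to 29410 in round spermatids and 27210 to 40050 in condensing spermatids, so that the last 2 stages overlapped. The 6 spermatogonial genes stayed low, at 38.7 to 77.6 normalized CPM in sum over the wild-type libraries of the 3 stages.

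Marker genes of other cell types differed in level between stages, and the source of their RNA was not tested. The 8 Sertoli cell genes, led by *Clu*, summed to 416 to 528 normalized CPM in wild-type condensing spermatids, above the 38.6 to 59.3 of wild-type round spermatids and the 31.3 to 38.7 of pachytene spermatocytes. The 6 Leydig cell genes, led in condensing spermatids by *Cyp17a1*, summed to 146 to 230 normalized CPM in wild-type condensing spermatids, 11.1 to 14.8 in wild-type round spermatids and 78.7 to 162 in wild-type pachytene spermatocytes. For the 5 peritubular myoid genes, led by *Actg2*, sums were 52.6 to 92.6 normalized CPM in wild-type pachytene spermatocytes, 327 to 334 in round spermatids and 303 to 408 in condensing spermatids. The difference between the first 2 of these stages lay in *Actg2*, with means of 63.5 and 319 normalized CPM, while *Acta2* (4.38 and 3.67), *Myh11* (7.21 and 6.61) and *Des* (1.22 and 0.376) were not higher in round spermatids and *Cnn1* was at 0.167 and 0.848. Macrophage genes (6, led by *Csf1r* in wild-type condensing spermatids) did not exceed 28.4 normalized CPM in sum in these wild-type stages, and 5 red blood cell genes did not exceed 24.9. The 8 genes of the epididymal epithelium summed to at most 2.11 normalized CPM in wild-type condensing spermatids, with *Lcn5*, *Lcn8* and *Lcn9* at 0.

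Levels of the 9 genes were spread widely. Compared per kilobase of exon, *Meig1* was the most abundant in wild-type round spermatids at 1441 ± 74.8 CPM per kb (mean ± SD, n = 3), above *Spem1* at 524 ± 41.6. *Rimbp3* at 197 ± 12.4, *Hook1* at 174 ± 21.8 and *Spag4* at 157 ± 16.7 CPM per kb followed, and the libraries of *Hook1* and *Spag4* overlapped. Below them came *Sun5* at 97.1 ± 10.7, *Sun3* at 67.0 ± 6.90, *Spag16* at 40.6 ± 0.553 and *Cntrob* at 1.73 ± 0.357 CPM per kb. *Meig1* was higher per kilobase than 99.9% of the genes detected in wild-type round spermatids, and *Cntrob* than 48.6% of them. The order was not fixed. In wild-type pachytene spermatocytes *Cntrob* stood at 11.4 ± 1.10 CPM per kb and *Spem1* at 85.6 ± 40.8, and in wild-type spermatozoa *Spem1* led at 326 ± 41.0 CPM per kb, ahead of *Meig1* at 140.3 ± 0.661 and *Spag16* at 75.2 ± 11.7 (n = 2).

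**Figure D1:**
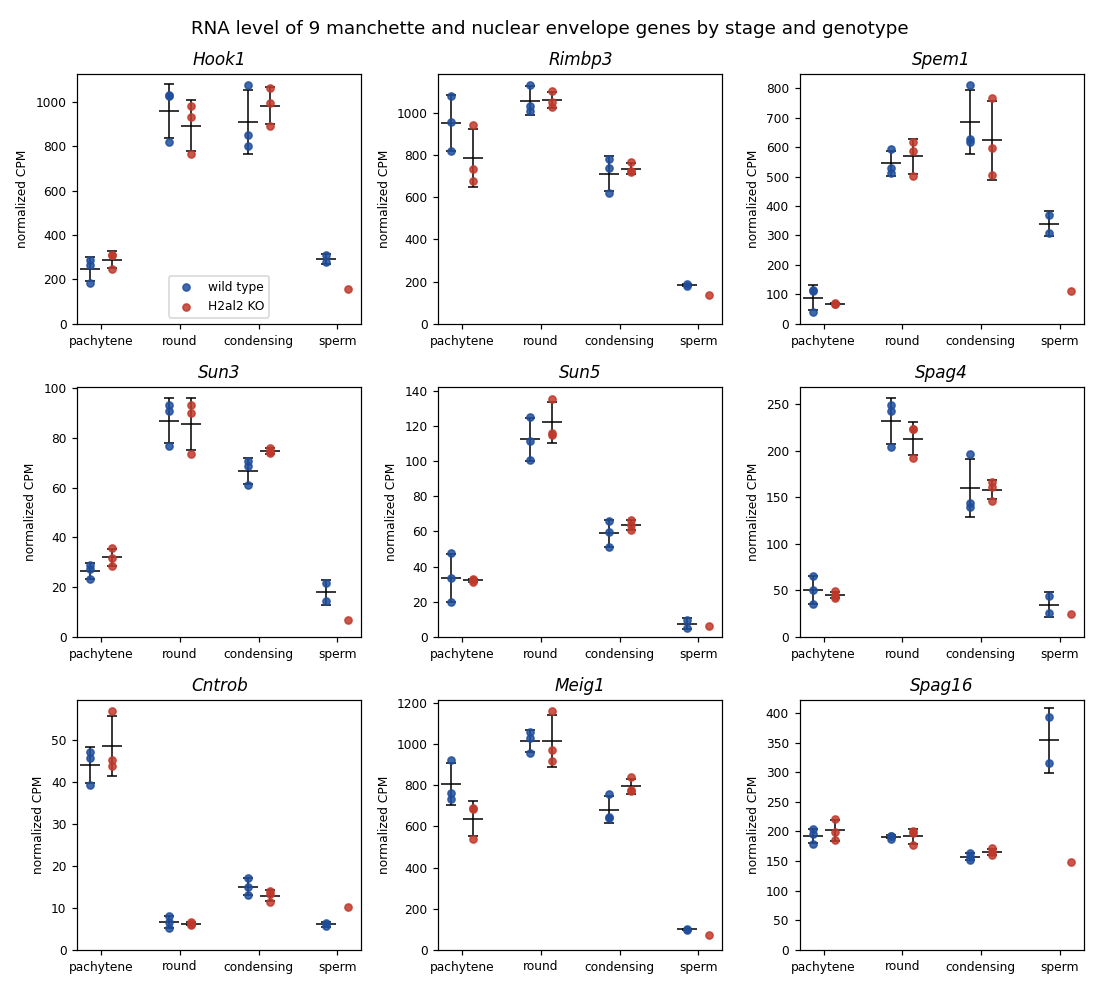
Normalized CPM (linear vertical axes) of the 9 genes in each of the 21 libraries, by stage, with wild-type in blue and *H2al2* KO in red. Long bars mark group means and whiskers the SD, absent from the single KO spermatozoa library. *Cntrob* was highest in pachytene spermatocytes, and *Spag16* was highest in the wild-type spermatozoa libraries, at 393 and 315 normalized CPM.

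From pachytene spermatocytes to round spermatids, the transcripts of most of the shaping proteins rose in wild-type cells, and that of the centriolar protein centrobin fell. By the quasi-likelihood test of edgeR at a Benjamini-Hochberg adjusted p under 0.05, 7 of the 9 genes passed, 6 upward and 1 downward, while 70.3% of the 14011 genes tested passed, 34.4% upward and 35.9% downward. The share that passed was thus near that of all genes, and the median log2 fold change of the 9 genes was 1.73 against -0.02 over all genes. Without overlap between the libraries of the stages, 6 of the 9 genes lay higher and 1 lower, against 73.2% of all genes without overlap, 35.3% higher and 37.8% lower. From round to condensing spermatids the median change was smaller, although *Rimbp3*, *Meig1* and *Spag16* changed more than in the first step. There 6 of the 9 genes passed, 1 upward and 5 downward, against 50% of all genes, 28.3% upward and 21.8% downward, and the median log2 fold change was -0.35 for the 9 genes and 0.04 for all. Over the alternatives 4 to 7 of the 9 passed, 3 to 6 of them downward, among 5783 to 7761 genes called in all. The calls of *Sun3* and *Spag4* were both lost without wild-type round spermatid replicate 2 (-0.31 and -0.48). The libraries of 8 of the 9 genes did not overlap, 2 higher and 6 lower in condensing spermatids, against 61.6% of all genes, 32.5% higher and 29.1% lower. Mitochondrial genes took 4.58% to 6.04% of the counts in wild-type pachytene spermatocytes, 3.38% to 3.70% in round and 4.48% to 6.47% in condensing spermatids. Entries that name no gene held 34.8% to 39.3% in wild-type round and 40.2% to 48.4% in condensing spermatids. The part of these shares in the stage changes was not tested.

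The same steps were tested in the KO libraries, which share none with the wild-type comparison. From pachytene spermatocytes to round spermatids 8 of the 9 genes passed in KO cells, 7 upward and 1 downward, against 74.9% of 13877 genes, 36.5% upward and 38.4% downward. From round to condensing spermatids 5 of the 9 passed in KO cells, 1 upward and 4 downward, against 54.2% of genes, 29.7% upward and 24.5% downward. Over the alternatives 4 to 7 passed, among 6563 to 8145 genes called in all. Member medians of the log2 fold change in KO cells were 1.40 and -0.19 for these steps, and those of all genes 0.00 and 0.03. KO libraries did not overlap for 7 genes that lay higher and 1 that lay lower in round spermatids than in pachytene spermatocytes, against 74.1% of genes, 36.4% higher and 37.7% lower. Between KO condensing and round spermatids 1 of the 9 lay higher and 5 lower without overlap, against 61.3% of genes, 32.1% higher and 29.2% lower.

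*Hook1* encodes the linker between manchette microtubules and their cargo that is lost in mice with the abnormal spermatozoon head shape mutation. Its level in wild-type pachytene spermatocytes was 287, 186 and 267 normalized CPM. Wild-type round spermatids had 820.0, 1026 and 1030.0, and wild-type condensing spermatids 852, 801 and 1075 normalized CPM. The pachytene libraries lay far below all others of these stages, and the round and condensing spermatid libraries overlapped. *Hook1* rose by a log2 fold change of 1.98 ± 0.19 (SE) from pachytene spermatocytes to round spermatids, a 3.94-fold change seen in all 3 round spermatid libraries (edgeR's quasi-likelihood test, Benjamini-Hochberg adjusted p = 8.10e-07). From round to condensing spermatids its log2 fold change was -0.05 ± 0.18 and did not pass. KO cells gave log2 fold changes of 1.60 ± 0.12 and 0.15 ± 0.12 for the same steps, of which the first passed.

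*Rimbp3* encodes a manchette protein that binds HOOK1. Wild-type pachytene spermatocytes had 956, 1082 and 818 normalized CPM of *Rimbp3*, round spermatids 1134, 1007 and 1034, and condensing spermatids 738, 779.8 and 619. Pachytene and round spermatid libraries overlapped, and every condensing spermatid library lay below them. The log2 fold change from pachytene spermatocytes to round spermatids, 0.18 ± 0.14, did not pass in wild-type cells. The later decrease did, with *Rimbp3* lower in 3 of 3 condensing spermatid libraries than in any round spermatid library (log2 fold change -0.54 ± 0.14, edgeR's quasi-likelihood test, Benjamini-Hochberg adjusted p = 0.00531). In KO cells the log2 fold changes of 0.41 ± 0.11 and -0.51 ± 0.11 both passed. The difference between KO and wild-type in the first of these changes was 0.23 ± 0.17 on the log2 scale and did not pass in the interaction test (edgeR's quasi-likelihood test, Benjamini-Hochberg adjusted p = 0.741), with 3 of 3 KO libraries overlapping the wild-type range in round spermatids. KO pachytene spermatocytes had 679, 735 and 942 normalized CPM in replicates 1 to 3, of which replicates 1 and 2 lay below every wild-type pachytene library.

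*Spem1*, which is needed for removal of the spermatid cytoplasm and without which the head bends back on the tail, had the steepest rise of the 9 genes. Its wild-type pachytene libraries held 113, 115 and 40.2 normalized CPM. Round spermatids had 594, 512 and 529, and condensing spermatids 628, 619 and 809 normalized CPM. No pachytene library came near the later stages, and pachytene replicate 3 was the lowest. In that library the 8 condensing spermatid markers also summed to 2220 normalized CPM, against 5495 and 5249 in replicates 1 and 2. Of the other genes that rose into round spermatids, *Sun3*, *Spag4*, *Sun5* and *Meig1* were also lowest in that pachytene library, and *Hook1* was not. The part of these markers in the results was not tested. *Spem1* was 6.21-fold higher in round spermatids than in pachytene spermatocytes, in 3 of 3 libraries, with a log2 fold change of 2.63 ± 0.30 (edgeR's quasi-likelihood test, Benjamini-Hochberg adjusted p = 4.33e-06). Its log2 fold change from round to condensing spermatids, 0.36 ± 0.28, did not pass, although the libraries of the stages did not overlap. KO cells gave 3.04 ± 0.14 and 0.14 ± 0.12, and again only the first passed.

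*Meig1* and *Spag16* belong to a transport module in which MEIG1, held on the manchette, brings SPAG16 to the tail, where SPAG16 is part of the central apparatus of the axoneme. Wild-type pachytene spermatocytes had 761, 925 and 735 normalized CPM of *Meig1*, round spermatids 959, 1031 and 1062, and condensing spermatids 756, 639 and 648. Round spermatid libraries were the highest without overlap, and 1 condensing spermatid library reached the pachytene range. The rise into round spermatids was small, with a log2 fold change of 0.36 ± 0.13 in 3 of 3 libraries (edgeR's quasi-likelihood test, Benjamini-Hochberg adjusted p = 0.0247). It no longer passed without wild-type pachytene replicate 1 (log2 fold change 0.31), pachytene replicate 3 (0.29), round spermatid replicate 2 (0.35) or round spermatid replicate 3 (0.33), nor with total counts only (0.17), no filter (0.32) or wild-type round spermatid replicates 2 and 3 summed (0.34). The fall into condensing spermatids was -0.55 ± 0.13 on the log2 scale, lower in 3 of 3 libraries (edgeR's quasi-likelihood test, Benjamini-Hochberg adjusted p = 0.00355). In KO cells *Meig1* changed by 0.65 ± 0.12 and -0.34 ± 0.12, and the second was no longer past the threshold without KO round spermatid replicate 3 (-0.26), condensing spermatid replicate 1 (-0.33) or condensing spermatid replicate 2 (-0.32).

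*Spag16* was the steadiest of the 9 genes over the first 3 stages. Its wild-type levels were 195.5, 179.6 and 203.5 normalized CPM at the pachytene stage, 193, 192 and 188 in round spermatids, then 152, 163 and 157 in condensing spermatids. The first 2 stages overlapped, and the condensing spermatid libraries lay below both. Log2 fold changes were 0.01 ± 0.11 and -0.25 ± 0.11 in wild-type cells and -0.09 ± 0.10 and -0.19 ± 0.10 in KO cells, and none of the 4 passed. The wild-type step to condensing spermatids passed with DESeq2's Wald test (-0.30), DESeq2 size factors (-0.30) and the fit on 18 libraries (-0.25). The KO step to round spermatids passed with total counts only (-0.25), and that to condensing spermatids without KO round spermatid replicate 1 (-0.26).

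Among the SUN proteins of the nuclear envelope, *Sun3* encodes a spermatid protein that tethers the manchette to the nucleus. Wild-type pachytene spermatocytes had 29.1, 27.4 and 23.1 normalized CPM of *Sun3*, round spermatids 76.7, 93.4 and 90.9, and condensing spermatids 70.7, 61.0 and 68.8. The 3 stages did not overlap, with round spermatids highest. *Sun3* was 3.33-fold higher in round spermatids than in pachytene spermatocytes in 3 of 3 libraries, a log2 fold change of 1.73 ± 0.13 (edgeR's quasi-likelihood test, Benjamini-Hochberg adjusted p = 1.68e-07). The following decrease of -0.35 ± 0.13 on the log2 scale passed narrowly, in 3 of 3 libraries (edgeR's quasi-likelihood test, Benjamini-Hochberg adjusted p = 0.0334). It was lost without wild-type round spermatid replicate 2 (-0.31) or 3 (-0.33) and without condensing spermatid replicate 1 (-0.40) or 2 (-0.33). KO cells gave 1.40 ± 0.12, which passed, and -0.18 ± 0.11, which passed only without KO round spermatid replicate 1 (-0.29).

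*Spag4*, also named SUN4, encodes a further SUN protein along which the manchette is attached to the nucleus. Its wild-type levels were 50.3, 65.2 and 34.8 normalized CPM at the pachytene stage, 203, 243 and 249 in round spermatids, then 143.5, 139.9 and 195.9 in condensing spermatids. Every round spermatid library was above every library of the other stages. The rise from pachytene spermatocytes was 4.69-fold, a log2 fold change of 2.23 ± 0.21 in 3 of 3 libraries (edgeR's quasi-likelihood test, Benjamini-Hochberg adjusted p = 8.29e-07). From round to condensing spermatids *Spag4* changed by -0.51 ± 0.20 on the log2 scale, lower in 3 of 3 libraries (edgeR's quasi-likelihood test, Benjamini-Hochberg adjusted p = 0.0485). That call was lost without wild-type round spermatid replicate 2 (-0.48) or 3 (-0.47) and without condensing spermatid replicate 1 (-0.44) or 2 (-0.47), and with the replicate number as a block (-0.50). In KO cells the steps were 2.23 ± 0.11 and -0.42 ± 0.10 and both passed.

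*Sun5* encodes the SUN protein that anchors the coupling apparatus between head and tail, and its loss gives headless sperm. Levels of *Sun5* were 33.2, 47.5 and 19.9 normalized CPM in wild-type pachytene spermatocytes, 125, 100.4 and 112 in round spermatids, then 59.8, 66.2 and 50.9 in condensing spermatids. The 3 stages were separate from one another in every library. *Sun5* rose 3.39-fold into round spermatids in 3 of 3 libraries, a log2 fold change of 1.76 ± 0.23 (edgeR's quasi-likelihood test, Benjamini-Hochberg adjusted p = 1.60e-05). It then had the largest decrease of the 9 genes, to 52.5% of the round spermatid mean, with a log2 fold change of -0.90 ± 0.23 in 3 of 3 libraries (edgeR's quasi-likelihood test, Benjamini-Hochberg adjusted p = 0.0053). KO cells gave 1.90 ± 0.11 and -0.93 ± 0.10 for the same steps, and both passed.

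*Cntrob* encodes centrobin, a centriole protein that is also found on the manchette and at the attachment of the tail, and it was the only one of the 9 that fell from pachytene spermatocytes to round spermatids. Wild-type pachytene spermatocytes had 45.8, 47.3 and 39.3 normalized CPM of *Cntrob*, round spermatids 8.05, 5.30 and 6.68, and condensing spermatids 15.1, 17.1 and 13.2. No library of a stage entered the range of another, and round spermatids were lowest. The fall was 6.49-fold in 3 of 3 libraries, with a log2 fold change of -2.70 ± 0.17 (edgeR's quasi-likelihood test, Benjamini-Hochberg adjusted p = 3.76e-08). *Cntrob* then rose 2.31-fold in 3 of 3 condensing spermatid libraries, a log2 fold change of 1.21 ± 0.18 (edgeR's quasi-likelihood test, Benjamini-Hochberg adjusted p = 0.000155). In KO cells the steps were -2.99 ± 0.16 and 1.07 ± 0.17 on the log2 scale, and both passed. The wild-type sums of Sertoli and Leydig cell genes given above were also higher in condensing than in round spermatids. The 8 pachytene genes summed to 1150.0, 1364 and 1133 normalized CPM in wild-type condensing spermatid replicates 1 to 3, against 916, 1021 and 976 in round spermatids, and *Piwil1* had means of 194 and 63.5. The part of these markers in the result was not tested.

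**Figure D2:**
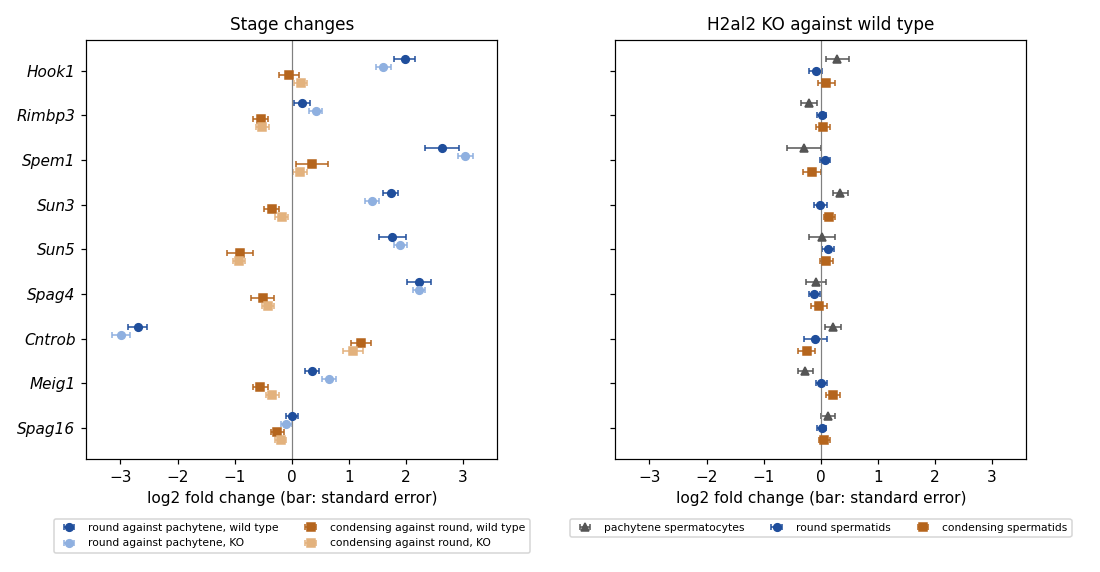
Log2 fold changes (horizontal axes) of the 9 genes with their standard errors as bars. The left panel gives the stage changes in wild-type and KO cells, and the right panel gives KO against wild-type within each stage. *Cntrob* lies at -2.70 in the first wild-type step and *Spem1* at 2.63, and the KO values lie between -0.30 and 0.34.

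Wild-type spermatozoa held less of most of these transcripts than condensing spermatids. All 9 genes passed the quasi-likelihood test of edgeR after Benjamini-Hochberg adjustment between wild-type spermatozoa and condensing spermatids, 8 downward and 1 upward, while 72.4% of 15116 genes passed, 35.8% downward and 36.6% upward. The median log2 fold change was -1.85 for the 9 genes and 0.00 for all genes. No gene of the 9 overlapped between these stages, and 81.3% of all genes did not, 40.5% higher and 40.8% lower in spermatozoa. The 9 genes summed to 3286 to 3637 normalized CPM in wild-type condensing spermatids and to 1262 and 1409 in wild-type spermatozoa.

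In the reported fit *Sun5* fell furthest, to 9.71 and 5.29 normalized CPM in wild-type spermatozoa replicates 1 and 2. Its log2 fold change was -2.92 ± 0.24 in 2 of 2 libraries (edgeR's quasi-likelihood test, Benjamini-Hochberg adjusted p = 6.00e-10), against -2.75 ± 0.17 for *Meig1*. Over the alternatives *Sun5* ran from -3.44 to -2.56 and *Meig1* from -2.81 to -2.67, so that their order was not fixed. *Meig1* stood at 99.4 and 98.8 normalized CPM in spermatozoa, 14.5% of its condensing spermatid mean. *Spag4* had 44.1 and 25.0 normalized CPM and *Sun3* 21.5 and 14.5. Both SUN genes were thus below all 3 wild-type condensing spermatid libraries, by log2 fold changes of -2.17 ± 0.21 and -1.85 ± 0.19. *Rimbp3* at 187 and 179.9 and *Hook1* at 278 and 308 normalized CPM were 3.81-fold and 3.05-fold lower than in condensing spermatids. *Cntrob* rested on 22 and 16 counts, or 6.47 and 5.64 normalized CPM, with a log2 fold change of -1.29 ± 0.28. The smallest decrease was that of *Spem1*, at 370.0 and 309.7 normalized CPM, or 49.6% of the condensing spermatid mean.

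*Spag16* was the exception. Its wild-type spermatozoa libraries held 393 and 315 normalized CPM, above all other libraries of either genotype. It was 2.29-fold higher than in condensing spermatids in 2 of 2 libraries, a log2 fold change of 1.20 ± 0.15 (edgeR's quasi-likelihood test, Benjamini-Hochberg adjusted p = 2.45e-07). Marker levels shifted between these stages as well. The 8 epididymal genes, of which 5 were detected and *Lcn5*, *Lcn8* and *Lcn9* were at 0, summed to 2147 and 2271 normalized CPM in wild-type spermatozoa and were led by *Crisp1* at 1543. The 6 macrophage genes, all detected and led by *Csf1r*, summed to 278 and 282 normalized CPM, against 21.9 to 28.4 in wild-type condensing spermatids. The 5 red blood cell genes summed to 50.3 and 50.4 normalized CPM, nearly all from *Alas2*, with *Hba-a1*, *Hbb-bs* and *Hbb-bt* at 0. Sums of the 8 Sertoli, 6 Leydig and 5 myoid genes in wild-type spermatozoa were 212 to 254, 10.6 to 11.5 and 86.8 to 93.2 normalized CPM. *Clu* made up most of the Sertoli sum, at a mean of 207, while *Wt1* stood at 2.12 against 27.4 in wild-type condensing spermatids and *Amhr2* at 5.38 against 73.0. Mitochondrial genes took 10.9% of the counts in both wild-type spermatozoa libraries and 4.48% to 6.47% in wild-type condensing spermatids. The part of these markers and of the mitochondrial share in the results on spermatozoa was not tested.

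The comparison of *H2al2* KO with wild-type asked whether loss of H2A.L.2 altered these transcripts. The gene of H2A.L.2, whose row bears the symbol *H2afb1*, checked the labels first. *H2afb1* had 40.5, 36.4 and 14.5 normalized CPM in wild-type pachytene spermatocytes and 4.78, 4.91 and 3.14 in KO. In round spermatids it had 201, 206 and 212 in wild-type and 25.4, 25.4 and 20.7 in KO. Condensing spermatids had 189.9, 159.6 and 249.8 in wild-type against 26.4, 35.7 and 29.9 in KO, and spermatozoa 58.2 and 45.9 against 14.8. Every KO library was below every wild-type library of its stage, and none was at 0. By stage, the KO changed *H2afb1* by a log2 fold change of -2.75 among pachytene spermatocytes, which did not pass, and of -3.10 among round and -2.71 among condensing spermatids, which passed.

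None of the 9 genes passed between KO and wild-type in any of the 3 stages by the quasi-likelihood test of edgeR after Benjamini-Hochberg adjustment. The counts were 0 of 9 in pachytene spermatocytes, where 0.0% of 12236 genes passed, 0 of 9 in round spermatids, where 0.0156% of 12804 genes passed (0.00781% upward and 0.00781% downward), and 0 of 9 in condensing spermatids, where 0.00728% of 13734 genes passed. At an unadjusted p under 0.05, edgeR gave 1 of the 9 genes in pachytene spermatocytes (6.66% of all tested) and 0 in either spermatid stage (5.88% and 6.33%), and DESeq2 called 0 of the 9 in each stage after adjustment. With so few genes called in all, a count of 0 says little about these 9. The 95% intervals below give the range of the changes they are printed with, and not every gene has one printed.

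In KO pachytene spermatocytes *Meig1* was at 538, 690.5 and 684 normalized CPM and *Sun3* at 35.6, 31.7 and 28.7. All 3 KO libraries of *Meig1* lay below the 3 wild-type libraries, and it was the only gene of the 9 without overlap, against 11.4% of all genes in either direction, 5.25% upward and 6.1% downward. Its log2 fold change was -0.27 (95% interval -0.56 to 0.02). Markers differed beside it. In KO pachytene spermatocytes the 8 Sertoli cell genes, all detected and led by *Clu*, summed to 13.4 to 23.7 normalized CPM, below all wild-type libraries, and the 6 Leydig cell genes, all detected and led by *Cyp17a1*, to 25.2 to 105.3, which overlapped with wild-type. The 8 pachytene genes, all detected and led by *Piwil1*, summed to 2760.0 to 3390.0 normalized CPM, which also overlapped with wild-type. *Sycp2* had a mean of 660.3 in KO and 320.1 in wild-type. Means were also higher in KO for *Sycp1* (235 and 127), *Sycp3* (180 and 126), *Hormad1* (142 and 92.4), *Mybl1* (204 and 150) and *Piwil1* (1175 and 1150). Only *Ccna1* (79.2 and 109) and *Spag6* (475 and 516) were lower in KO. The part of these markers in the result was not tested. *Sun3* overlapped between genotypes at 1 library of each and had a log2 fold change of 0.34 (95% interval 0.04 to 0.64), the one value of the 9 with an unadjusted p under 0.05 (edgeR's quasi-likelihood test, Benjamini-Hochberg adjusted p = 0.656, higher in 2 of 3 KO libraries than in any wild-type library). *Spem1* at 70.4, 66.2 and 68.1 normalized CPM lay inside the wild-type range, with a log2 fold change of -0.30 (95% interval -0.97 to 0.38). Without wild-type pachytene replicate 3, in which *Spem1* was lowest, its log2 fold change was -0.62 and 1 of the 9 genes passed, among 243 genes in all. The 8 condensing spermatid genes then summed to 5495 and 5249 normalized CPM in the wild-type libraries kept, against 2914, 3167 and 2908 in KO, and their part in the result was not tested. The other 6 genes lay between -0.21 for *Rimbp3* (95% interval -0.51 to 0.10) and 0.29 for *Hook1* (95% interval -0.16 to 0.73). *Hook1* had 311, 311 and 246 normalized CPM in KO. Among these 6, *Sun5* at 0.02 had a 95% interval of -0.50 to 0.54.

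In round spermatids the genotypes overlapped for all 9 genes, whereas 9.89% of all genes did not overlap, 3.98% upward and 5.91% downward. The log2 fold changes ran from -0.11 for *Spag4* (95% interval -0.33 to 0.11) to 0.13 for *Sun5* (95% interval -0.10 to 0.36). *Spag4* stood at 223, 223.5 and 192 normalized CPM in KO round spermatids and *Sun5* at 115, 135.5 and 116. Neither gene had all 3 KO libraries on one side of the wild-type range given above. The narrowest interval was that of *Rimbp3*, -0.15 to 0.18, and the widest that of *Cntrob*, -0.54 to 0.35, which had 5.86, 6.61 and 6.19 normalized CPM in KO. Sertoli cell genes summed to 27.6 to 36.5 normalized CPM and Leydig cell genes to 6.475 to 10.3 in KO round spermatids. Both lay below the wild-type sums, and their part in these values was not tested.

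In condensing spermatids *Meig1* and *Sun3* had all KO libraries above all wild-type libraries, 2 of the 9 genes against 12.1% of all genes that did not overlap in either direction, 6.63% upward and 5.48% downward. *Meig1* was at 770.1, 779 and 838 normalized CPM in KO, and its log2 fold change was 0.21 (95% interval -0.05 to 0.47). *Sun3* was at 74.3, 74.0 and 76.1 normalized CPM in KO, with a log2 fold change of 0.15 (95% interval -0.07 to 0.37). The 3 KO libraries of *Sun3* were close together just above the highest wild-type library. The lowest value was that of *Cntrob* at -0.24 (95% interval -0.57 to 0.08), with 13.9, 11.5 and 13.3 normalized CPM in KO and overlap with wild-type. Sertoli cell genes summed to 338 to 405.5 normalized CPM and Leydig cell genes to 88.1 to 133 in KO condensing spermatids, below the wild-type sums, and their part in these values was not tested.

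Whether the KO effect differed between stages was tested as an interaction on 18 libraries. Between round spermatids and pachytene spermatocytes 0 of the 9 genes passed the quasi-likelihood test of edgeR after Benjamini-Hochberg adjustment, as did 0.0% of 14479 genes, with 0 of the 9 by DESeq2 and 0 of the 9 at an unadjusted p under 0.05 (7.25% of all genes). Between condensing and round spermatids the counts were again 0 of 9 and 0.0% by edgeR and 0 of 9 by DESeq2, with 0 of the 9 at an unadjusted p under 0.05 (2.81% of all genes). The largest difference was that of *Spem1* between round spermatids and pachytene spermatocytes, 0.39 ± 0.33 on the log2 scale. *Sun3*, whose rise into round spermatids was 1.40 in KO and 1.73 in wild-type cells, had -0.34 ± 0.18.

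The single *H2al2* KO spermatozoa library had no replicate and was not tested, and the intervals given for it are exact Poisson intervals that cover counting error only. Of the 9 genes, 7 were below both wild-type spermatozoa libraries, *Sun5* lay between them and *Cntrob* above both. *Spag4*, at 24.9 normalized CPM (95% interval 19.8 to 31.0) against 25.0 in wild-type replicate 2, was lower by less than its counting error. *Spem1* was at 110.2 normalized CPM (95% interval 99.0 to 122), 32.4% of the wild-type mean. *Spag16* was at 149 normalized CPM (95% interval 136 to 163), 42.1% of the wild-type mean and not above the levels of the earlier stages. *Hook1* at 156 normalized CPM was at 53.1% of the wild-type mean, *Sun3* at 37.7%, *Rimbp3* at 75.5%, *Meig1* at 73.9% and *Spag4* at 72.1%. *Sun5* had 6.15 normalized CPM from 20 counts. *Cntrob* had 10.2 normalized CPM from 33 counts (95% interval 6.99 to 14.3). The wild-type intervals of *Cntrob*, 4.05 to 9.80 and 3.23 to 9.16 normalized CPM, overlapped it. Marker sums of this library stood apart as well. The 8 condensing spermatid genes summed to 10870 normalized CPM against 29350 and 32920 in wild-type spermatozoa, and the 8 epididymal genes to 619 with *Defb20* also at 0. The 6 macrophage genes, all detected and led by *Csf1r* at 273.5, summed to 1229 normalized CPM. The 6 spermatogonial genes summed to 70.8 normalized CPM, of which *Kit* gave 38.5 and *Zbtb16* 24.6, with the other 4 below their wild-type means. The 8 Sertoli genes summed to 288 normalized CPM, of which *Clu* gave 276. Mitochondrial genes took 5.93% of its counts against 10.9% in both wild-type spermatozoa libraries, and entries that name no gene 57.7% against 47.8% and 48.5%. The part of these markers in the levels of the 9 genes was not tested.

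Close relatives and KASH partners of the 9 genes were mixed in direction. *Hook2*, a HOOK family member, rose into round spermatids by a log2 fold change of 0.51 ± 0.17 in wild-type cells and fell by 0.86 ± 0.17 into condensing spermatids, and the first call was lost with total counts only (0.32). *Hook3* had 13.8 normalized CPM in wild-type round spermatids and 30.8 in condensing spermatids, a rise of 1.18 ± 0.26 on the log2 scale. *Sun1* and *Sun2* fell from pachytene spermatocytes to round spermatids, with log2 fold changes of -0.67 ± 0.13 and -1.32 ± 0.20, where *Sun3*, *Spag4* and *Sun5* all rose. *Sun2* then rose by 1.30 ± 0.20 into condensing spermatids and by 2.04 ± 0.16 into spermatozoa. As given above, the sums of Sertoli and Leydig cell genes were also higher in condensing than in round spermatids, and those of macrophage and epididymal genes in spermatozoa, and their part in the rises of *Hook3* and *Sun2* was not tested. *Sun1* had -0.32 ± 0.13 into wild-type condensing spermatids, which did not pass but did in 5 alternatives, among them the fit without wild-type condensing spermatid replicate 2 (-0.44), and in KO cells it passed at -0.28 ± 0.09, with an interaction of 0.03 ± 0.15 that did not pass. *Sun1* fell by 1.06 ± 0.17 into spermatozoa, where *Sun3*, *Spag4* and *Sun5* fell as well. The KASH genes *Syne1* and *Syne3* rose into round spermatids by 0.98 ± 0.26 and 1.85 ± 0.33. None of these 6 genes passed in a KO comparison by edgeR's quasi-likelihood test, and *Hook2* in pachytene spermatocytes and *Sun2* in condensing spermatids had an unadjusted p under 0.05.

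A wider list of 38 manchette genes, with the 9 left out, was mixed in direction. In wild-type cells 15 rose and 11 fell from pachytene spermatocytes to round spermatids, where 34.4% of all genes rose and 35.9% fell. From round to condensing spermatids 5 rose and 21 fell, against 28.3% and 21.8% of all genes, where the list median was -0.38 against 0.04 for all genes. The largest rises into round spermatids were those of *4933402P03Rik* (the *Spem2* gene), *Kif17*, a kinesin motor, and *Clip1*, a microtubule plus-end protein, with log2 fold changes of 2.64 ± 0.24, 2.15 ± 0.21 and 1.90 ± 0.13. *4933402P03Rik* went from 66.0 ± 20.9 to 407 ± 27.1 normalized CPM. *Gopc*, a Golgi protein needed for the acrosome, and *Ift20*, of the intraflagellar transport complex, had the largest decreases, -2.61 ± 0.18 and -1.93 ± 0.12. *Gopc* rose again into condensing spermatids by 1.18 ± 0.18, as did *4933402P03Rik* by 0.75 ± 0.22, a call that was lost without wild-type condensing spermatid replicate 3 (0.51). The sums of pachytene, Sertoli and Leydig cell genes given above were also higher in wild-type condensing than in round spermatids. Their part in these rises was not tested. *Ccdc42* and *Stk36* fell into condensing spermatids, at -0.96 ± 0.13 and -0.77 ± 0.12. Into wild-type spermatozoa 31 of the 38 fell and 3 rose, against 35.8% and 36.6% of all genes, with *Mapre3* at -2.79 ± 0.20, *Ccdc38* at -2.37 ± 0.18 and *Ccdc181* at -2.32 ± 0.16. The 3 that rose were *Myo5a*, a myosin motor, at 1.22 ± 0.16, *Hook3* at 0.77 ± 0.17 and *4933402P03Rik* at 0.68 ± 0.19, and the last was lost without wild-type spermatozoa replicate 1 (0.51). Macrophage and epididymal sums were also higher in wild-type spermatozoa, as given above, and their part in these rises was not tested. In KO cells 14 rose and 14 fell into round spermatids (36.5% and 38.4% of all genes), and 5 rose and 20 fell into condensing spermatids (29.7% and 24.5%).

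Of 19 further nuclear envelope genes, 17 could be tested in wild-type cells. From pachytene spermatocytes to round spermatids 6 rose and 7 fell, against 34.4% and 35.9% of all genes. *Lbr*, the lamin B receptor, fell by 2.72 ± 0.19 on the log2 scale, from 81.8 ± 7.93 to 12.2 ± 2.66 normalized CPM, and *Lmnb1*, which encodes lamin B1, fell by 1.46 ± 0.14. *Lmnb2* and *Tor1aip1* rose by 1.78 ± 0.20 and 1.82 ± 0.15. In the step to condensing spermatids 3 rose and 5 fell, against 28.3% and 21.8% of all genes, among them *Emd*, which encodes emerin, at -0.97 ± 0.17, and *Dpy19l2*, which holds the acrosome to the nucleus, at -0.70 ± 0.14. Into wild-type spermatozoa 9 of 18 rose and 7 fell, against 36.6% and 35.8% of all genes. *Lmna*, which encodes lamins A and C, rose there by 2.69 ± 0.18, from 10.6 ± 1.80 to 67.5 ± 5.25 normalized CPM, and *Lrmp* by 3.96 ± 0.41. The sums of macrophage and epididymal genes given above were also higher in wild-type spermatozoa than in condensing spermatids, and their part in these rises was not tested. *Tor1aip1*, *Ccdc155* and *Dpy19l2* fell there, at -1.69 ± 0.16, -1.64 ± 0.21 and -1.61 ± 0.17. KO cells gave 6 up and 7 down of 18 (36.5% and 38.4% of all genes), then 4 up and 6 down (29.7% and 24.5%).

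The list of head-to-tail coupling and tail held 10 genes. From pachytene spermatocytes to round spermatids 9 of 10 rose and 1 fell in wild-type cells, against 34.4% and 35.9% of all genes, with a list median of 2.11 against -0.02 for all genes, and the KO counts were the same (36.5% and 38.4% of all genes). *Akap4*, of the fibrous sheath, rose by 2.74 ± 0.24 on the log2 scale and *Odf1*, of the outer dense fibers, by 2.46 ± 0.22. *Akap4*, *Odf1* and *Oaz3* of this list are also among the genes used above as condensing spermatid markers. *Cntln*, a centriole protein like centrobin, fell by 0.95 ± 0.27. In the wild-type step to condensing spermatids 2 rose and 1 fell, against 28.3% and 21.8% of all genes, and 7 did not pass. Over the alternatives 1 to 2 fell, with *Cep112* also called without wild-type condensing spermatid replicate 3 (-0.42). In the reported fit of that step the named genes were as follows. *Odf1* rose there by 0.89 ± 0.21 and *Oaz3* by 0.85 ± 0.23, and *Spatc1l* fell by 0.87 ± 0.18. *Odf1* rose further into spermatozoa, by 2.41 ± 0.21, while 7 of the 10 fell (35.8% of all genes), among them *Pmfbp1* at -2.04 ± 0.18 and *Spata6* at -1.68 ± 0.17. Over the alternatives 1 to 3 of the list rose into spermatozoa and 5 to 7 fell. In the KO comparisons and the interactions, 0 genes of the 3 lists passed by edgeR's quasi-likelihood test, and under the alternatives a list had at most 1 gene upward and 2 downward.

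For each of the 9 genes the closest profiles were sought by Pearson's r of log2 normalized CPM over the 18 libraries of the 3 stages, among 14037 genes. These values describe likeness only, since the 18 libraries share the same 3 stages. *Spem1* was closest to *Oxct2a* (r = 0.999) and *Oxct2b* (r = 0.998), *Spag4* to *Rffl* and *Sqrdl* (both r = 0.997), and *Sun3* to *Nabp1* (r = 0.996) and *Slc16a7* (r = 0.993). *Cntrob* was closest to *Cers3* (r = 0.995) and *Trappc11* (r = 0.993), *Hook1* to *Cep85l* and *Dnajb4* (both r = 0.992), *Sun5* to *Dcst1* and *Plac8l1* (both r = 0.990) and *Rimbp3* to *Dnajb1* (r = 0.989) and *Txnrd3* (r = 0.987). *Meig1* and *Spag16* had weaker matches. *Zfp423* (r = 0.940) and *Pifo* (r = 0.936) were closest to *Meig1*, and *Cfap44* (r = 0.927) and *Dnah6* (r = 0.924), both of the cilium, to *Spag16*.

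The 9 genes lie on 5 chromosomes of the mouse genome (GRCm38), all annotated as protein-coding. *Spem1* (chr11:69820876-69822180), *Cntrob* (chr11:69299487-69323775) and *Sun3* (chr11:9016054-9048991) share chromosome 11, and *Meig1* (chr2:3409043-3422648), *Sun5* (chr2:153856188-153871084) and *Spag4* (chr2:156065175-156070617) share chromosome 2. *Hook1* (chr4:95967240-96025413), *Spag16* (chr1:69826970-70725132) and *Rimbp3* (chr16:17208603-17213982) lie alone, and *Rimbp3* has a single exon. RefSeq promoter windows of 300 bases on GRCm38.p6, from 250 before to 50 after the start of a RefSeq transcript, were matched for 7 of the 9 genes in 10 windows, and *Rimbp3* and *Cntrob* had none.

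Of these 7 genes, 6 rose into wild-type round spermatids, all but *Spag16*. Both strands of the windows were searched for TGACGT, one side of the cyclic AMP response element that CREM and CREB bind, GTTGCC, one side of the X-box that RFX factors bind, and TATAAA, the TATA box. TGACGT was found in 1 of the 7 genes, *Spag4*, and in 7.51% of 32851 promoter windows. The *Spag4* match at 37 bases before the start overlapped its reverse complement ACGTCA at 35 bases before, so that together they spelled the full palindrome. The starts used for *Hook1*, *Spag4* and *Spem1* lie inside the gene spans given above, as do those of *Meig1* and *Sun3* in all but their outermost windows. The *Spag4* match falls within the span of its gene. GTTGCC was found in *Spem1*, at 109 bases before the start, and in *Spag16*, at 111 and 103 bases before, and in 12.5% of all windows. TATAAA was in none of the 10 windows and in 13.6% of all. A match describes the sequence and does not show a bound site. The windows with a match are printed 5′ to 3′ on the strand of each gene, with the matched letters in capitals: *Spag4* (plus strand, chr2:156064963-156065262), *Spem1* (minus strand, chr11:69822116-69822415) and *Spag16* (plus strand, chr1:69826720-69827019).
Spag4: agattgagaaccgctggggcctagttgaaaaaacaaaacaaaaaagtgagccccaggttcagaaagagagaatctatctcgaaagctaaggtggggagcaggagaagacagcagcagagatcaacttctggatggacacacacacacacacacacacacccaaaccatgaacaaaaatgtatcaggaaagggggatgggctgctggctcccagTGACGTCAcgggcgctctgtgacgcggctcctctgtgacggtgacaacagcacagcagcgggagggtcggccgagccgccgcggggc
Spem1: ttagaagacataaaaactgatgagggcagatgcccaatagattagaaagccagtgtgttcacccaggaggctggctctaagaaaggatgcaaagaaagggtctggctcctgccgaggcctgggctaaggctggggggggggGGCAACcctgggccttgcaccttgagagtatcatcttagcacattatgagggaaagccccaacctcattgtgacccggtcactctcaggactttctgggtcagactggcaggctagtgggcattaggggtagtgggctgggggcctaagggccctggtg
Spag16: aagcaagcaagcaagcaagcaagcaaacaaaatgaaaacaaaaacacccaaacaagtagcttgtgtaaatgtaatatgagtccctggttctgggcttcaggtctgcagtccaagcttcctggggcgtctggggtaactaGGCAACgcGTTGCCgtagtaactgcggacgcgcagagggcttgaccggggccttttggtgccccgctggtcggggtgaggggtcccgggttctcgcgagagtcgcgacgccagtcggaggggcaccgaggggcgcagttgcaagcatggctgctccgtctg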

How the data were processed

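Total RNA depleted of ribosomal RNA was sequenced in 21 libraries. Per the labels and the paper's methods, the authors aligned the reads to mm10 with STAR 2.7.11b and deposited raw read counts per gene made with HTSeq on the reverse strand, without normalization or pooling, and DESeq2 1.22.2 is also named in the submitters' notes. Counts per library ranged from 2772995 to 8201682. Entries that name no gene held 34.6% to 57.7% of the counts and were left out of totals and tests.

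Raw counts were tested with edgeR 4.0.16 (R 4.3.3) by the quasi-likelihood test, after TMM normalization and filterByExpr, with p adjusted by Benjamini-Hochberg over all genes tested and a threshold of 0.05. Stage changes were fitted on the 9 libraries of the 3 stages within each genotype, spermatozoa against condensing spermatids on 5 wild-type libraries, KO effects within each stage, and interactions on 18 libraries. All 9 genes passed the filter in each comparison. Levels are CPM with TMM factors over 21 libraries, divided for the per-kilobase comparison by the exon length of GENCODE transcripts paired with RefSeq. The test was also run on simulated data for the KO comparisons within stages, the first wild-type stage step and the spermatozoa comparison. For that stage step the simulation used only the pachytene spermatocyte and round spermatid libraries, not the 9 of the reported fit. Few genes were changed in the simulations, which did not cover comparisons in which most genes pass.

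Members and lists were chosen with earlier results of these data known. The genes named are the 9 members, the gene of H2A.L.2, 6 relatives or KASH partners, up to 3 genes per list and direction with the largest change among those past 0.05 with a mean of at least 1 CPM and no overlap, and the 2 closest profiles of each member (log2 of normalized CPM plus 0.5). Lists covered the manchette, the nuclear envelope and head-to-tail coupling, and markers of pachytene spermatocytes, round and condensing spermatids, spermatogonia, Sertoli, Leydig, peritubular myoid, macrophage, red blood and epididymal cells. Alternatives were the DESeq2 1.42.0 Wald test, DESeq2 size factors, total counts only, no filter, a mean of at least 1 CPM, a fit on all 18 libraries of the stages or all 11 wild-type libraries, wild-type round spermatid replicates 2 and 3 summed, a block for the replicate number, and each library left out.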

Additional observations from a re-analysis of the deposited data

Results flagged for a closer look

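*Cntrob* in the single *H2al2* KO spermatozoa library, which entered no test, stood at 10.15 normalized CPM, above both wild-type spermatozoa libraries (6.47 and 5.64). The value rests on 33 counts against 22 and 16, and the counting intervals overlap.

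*Meig1* had KO effects of opposite sign at different stages, neither of which passed the test. Its log2 fold change between KO and wild-type was -0.27 in pachytene spermatocytes, with all 3 KO libraries below all wild-type libraries, and 0.21 in condensing spermatids, with all 3 KO libraries above them. The difference between these stages was not tested directly. The interactions that were tested gave 0.28 ± 0.17 between round spermatids and pachytene spermatocytes (edgeR's quasi-likelihood test, Benjamini-Hochberg adjusted p = 0.681, 3 libraries per group) and 0.20 ± 0.17 between condensing and round spermatids (edgeR's quasi-likelihood test, Benjamini-Hochberg adjusted p = 0.9998, 3 libraries per group).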

How the results depend on the processing

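The alternatives gave 954 log2 fold changes of the 9 genes. Sign and call were kept by 896 of them, 23 were no longer past the threshold, 7 came past it and 28 changed sign, with 0 of the 28 past the threshold in either setting. Of 126 counts of members, 125 stayed within 1.5 times the reported count. The exception was the KO effect in pachytene spermatocytes, where leaving out a library in turn gave 0 to 1 members. The cause was not tested.

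With total counts only, the sign changed for *Rimbp3* (-0.0084) and *Spag16* (-0.18) in the wild-type step from pachytene spermatocytes to round spermatids, for *Hook1* (0.0108) in the wild-type step to condensing spermatids, and for *Sun5* (-0.0195) between KO and wild-type pachytene spermatocytes. With no filter it changed for *Spag16* (-0.024) in the first of these comparisons and for *Sun5* (-8e-04) in the last. With wild-type round spermatid replicates 2 and 3 summed it changed for *Rimbp3* (-0.0065) and *Sun3* (0.03) in the KO effect at that stage. The cause of these changes was not tested.

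With one library left out in turn, values that changed sign ranged as follows. *Spag16* ran from -0.0489 to 0.0468 in the first wild-type step, and *Spem1* from -0.0193 to 0.27 between KO condensing and round spermatids. In the KO effect in pachytene spermatocytes *Sun5* ran from -0.21 to 0.29 and *Spag4* from -0.25 to 0.0932. In round spermatids the KO effect ran from -0.0118 to 0.071 for *Rimbp3*, -0.0917 to 0.0954 for *Sun3*, -0.23 to 0.0704 for *Cntrob*, -0.096 to 0.0878 for *Meig1*, -0.19 to 0.0185 for *Hook1* and -0.0159 to 0.0808 for *Spag16*. In condensing spermatids it ran from -0.0451 to 0.10 for *Rimbp3* and -0.12 to 0.15 for *Spag4*.

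Calls also shifted in settings that left out no library. *Meig1* in the first wild-type step was lost with total counts only (0.17), no filter (0.32) and the summed replicates (0.34), over alternatives whose adjusted p in edgeR's quasi-likelihood or DESeq2's Wald test with Benjamini-Hochberg adjustment ran from 0.00335 to 0.246. *Sun3* (-0.29 and -0.33) and *Spag4* (-0.45 and -0.48) between wild-type condensing and round spermatids were lost with total counts only and with the summed replicates. *Spag16* passed there (-0.30, -0.30 and -0.25) with DESeq2's Wald test, DESeq2 size factors and the fit on 18 libraries, and between KO round spermatids and pachytene spermatocytes (-0.25) with total counts only. The all-gene median was -0.20 and -0.15 with total counts in the first step of wild-type and KO cells (-0.02 and 0.00 as reported), and -0.13 with no filter in wild-type spermatozoa (0.00). Genes called in all ranged from 0 to 243 in the KO effect in pachytene spermatocytes (0 as reported), 1 to 264 in round spermatids (2), 1 to 27 in condensing spermatids (1), and 0 to 225 in the interaction of round spermatids with pachytene spermatocytes (0).

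With the replicate number as a replicate block, the members called were 7, 5, 8 and 5 in the stage steps in the order wild-type then KO and 9 in spermatozoa, with 0 in every KO comparison and interaction, where the reported counts were 7, 6, 8, 5, 9 and 0. The one call changed was that of *Spag4* (-0.50). Genes called in all under the block were 61 in the KO effect in round spermatids and 26 in condensing spermatids. Over the alternatives, the block among them, genes called in all ran from 9160 to 10392 and from 5783 to 7761 in the wild-type steps. They ran from 9915 to 11083 and from 6563 to 8145 in the KO steps, and from 9721 to 11694 in spermatozoa. Deviations of libraries with the same number correlated at -0.138 to 0.213, and the numbers were not read as pairs. Some values were above the limit of 0.1 set for pairing. In the 2 wild-type stage steps replicate 1 had 0.121 and 0.213, replicate 3 had 0.161 and 0.192, and replicate 2 had -0.138 and -0.076. Between genotypes, round spermatid replicate 1 had 0.164. All other values were at most 0.065. Depth limited spermatozoa most, where *Cntrob* and *Sun5* rest on 15 to 33 counts per library.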
